A study of Mus musculus with 8 samples.

Results

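The genes described here are 9 receptors that steer T cells between tissues: the chemokine receptors Ccr9, Ccr7, Ccr2, Ccr4, Cxcr3, Cxcr4, Cxcr5 and Cxcr6, and the egress receptor S1pr1. A probe set, the group of short oligonucleotides that reports 1 transcript on the array, was taken as a member where its single gene symbol in the platform annotation is 1 of these 9. This gave 9 of 12393 genes measured and 14 of the 22626 probe sets tested, with 6 genes read by 1 probe set and 3 (Ccr9, Ccr2 and Cxcr6) by several. The cells were of stable Snf5-deficient lines of mouse T cell lymphoma. Snf5 is the product of Smarcb1 and belongs to SWI/SNF, a complex that moves nucleosomes. By surface CD44, which binds hyaluronan and is raised on memory T cells, they had been separated into CD44hi (4 arrays) and CD44lo (4 arrays), so both groups share the Snf5 loss and no Snf5-proficient cells enter. How many lines there were, and whether replicates are separate cultures, is not given in the labels, so p-values cover only the spread between these arrays and that spread may be technical.

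Chemokine receptors are G protein-coupled receptors of the cell surface. They read gradients of small secreted proteins, the chemokines, and signal mainly through inhibitory G proteins to turn the cytoskeleton and integrins toward the source. S1pr1 does the same for sphingosine 1-phosphate, a lipid that is abundant in blood and lymph, and draws T cells out of lymphoid organs. Naive T cells typically carry Ccr7 and S1pr1 for recirculation through lymph nodes, thymocytes and gut-homing T cells carry Ccr9, and effector and memory T cells gain Cxcr3, Ccr2, Ccr4 or Cxcr6, receptors of inflamed tissue, skin or liver.

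CD44hi cells carried more Ccr9, Ccr7 and Cxcr3 transcript than CD44lo cells. Ccr2 read lower in CD44hi, though not with every probe set and at a CD44hi level that cannot be told from background. In all, 5 member probe sets were higher in CD44hi and 2 were lower, and 7 did not pass (limma, Benjamini-Hochberg adjusted p under 0.05 over all 22626 probe sets). Over all probe sets 3.12% were called, 1.64% as higher and 1.48% as lower. When replicate number was a block, 6 member probe sets were higher and 2 lower, and 5.15% of all probe sets were called, 2.52% as higher and 2.63% as lower. Counted with 1 probe set a gene, Ccr9, Ccr7 and Cxcr3 were higher and Ccr2 lower, against 1.88% and 1.63% of all genes. The members were chosen with results of these data known, so the count among them is a description. The values of the CD44hi and CD44lo arrays did not overlap in 7 member probe sets, against 9.34% of all probe sets. The median difference (CD44hi minus CD44lo) was -0.0445 on the log2 scale over the 14 member probe sets and -0.00111 over all.

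The samples gave array medians of 320.2 to 339.3 on the linear intensity scale. The sorted marker Cd44 differed in the direction of the labels, by 7.99 and 5.89 on the log2 scale with its 2 probe sets. CD44lo lay within the control range described below on 4 arrays with the first probe set and 3 with the second, so these sizes are uncertain. Smarcb1 was at 5.35 in CD44hi and 5.37 in CD44lo, within the control range described next, with 1 probe set and at 6.78 and 6.85 with the other, and its level checks nothing here, since no source used says which exons were removed or where the probes bind. Of 12 measured T cell markers 0 were called (limma; 2 had an unadjusted p under 0.05). Mean log2 intensities in CD44hi and CD44lo cells were 14.14 and 14.18 for Cd3d and 13.86 and 13.87 for Cd8a, while the probe sets of Cd4, Cd5 and Thy1 lay within the range of bacterial control probe sets on all arrays. Those 27 controls match no mouse transcript, and their highest value on an array, 5.53 to 5.86, is used here as the level under which a probe set cannot be told from background. For Gapdh, the log2 3' over 5' control signal, which rises as RNA degrades, averaged 0.816 ± 0.052 over CD44hi arrays against 0.696 ± 0.036 over CD44lo arrays (SD over 4 arrays a group; two-sided exact permutation p = 0.0286, the lowest possible with 70 assignments). For Actb the averages were 0.626 ± 0.152 and 0.498 ± 0.105 (SD over 4 arrays a group; two-sided exact permutation p = 0.229). The part of RNA quality in the receptor differences was not tested. Arrays numbered 1 and 3 resembled each other in both groups, as did arrays numbered 2 and 4. If each such pair repeats 1 preparation, a group holds 2 independent values, and limma on the averaged arrays called 0 member probe sets (7 had an unadjusted p under 0.05) and 14 higher and 2 lower of all probe sets. With the number pair as a block, the averaged arrays gave 4 member probe sets higher (Ccr9 with all its probe sets, and Ccr7) and 2 lower (Ccr2), and 209 higher and 174 lower of all.

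**Figure D1:**
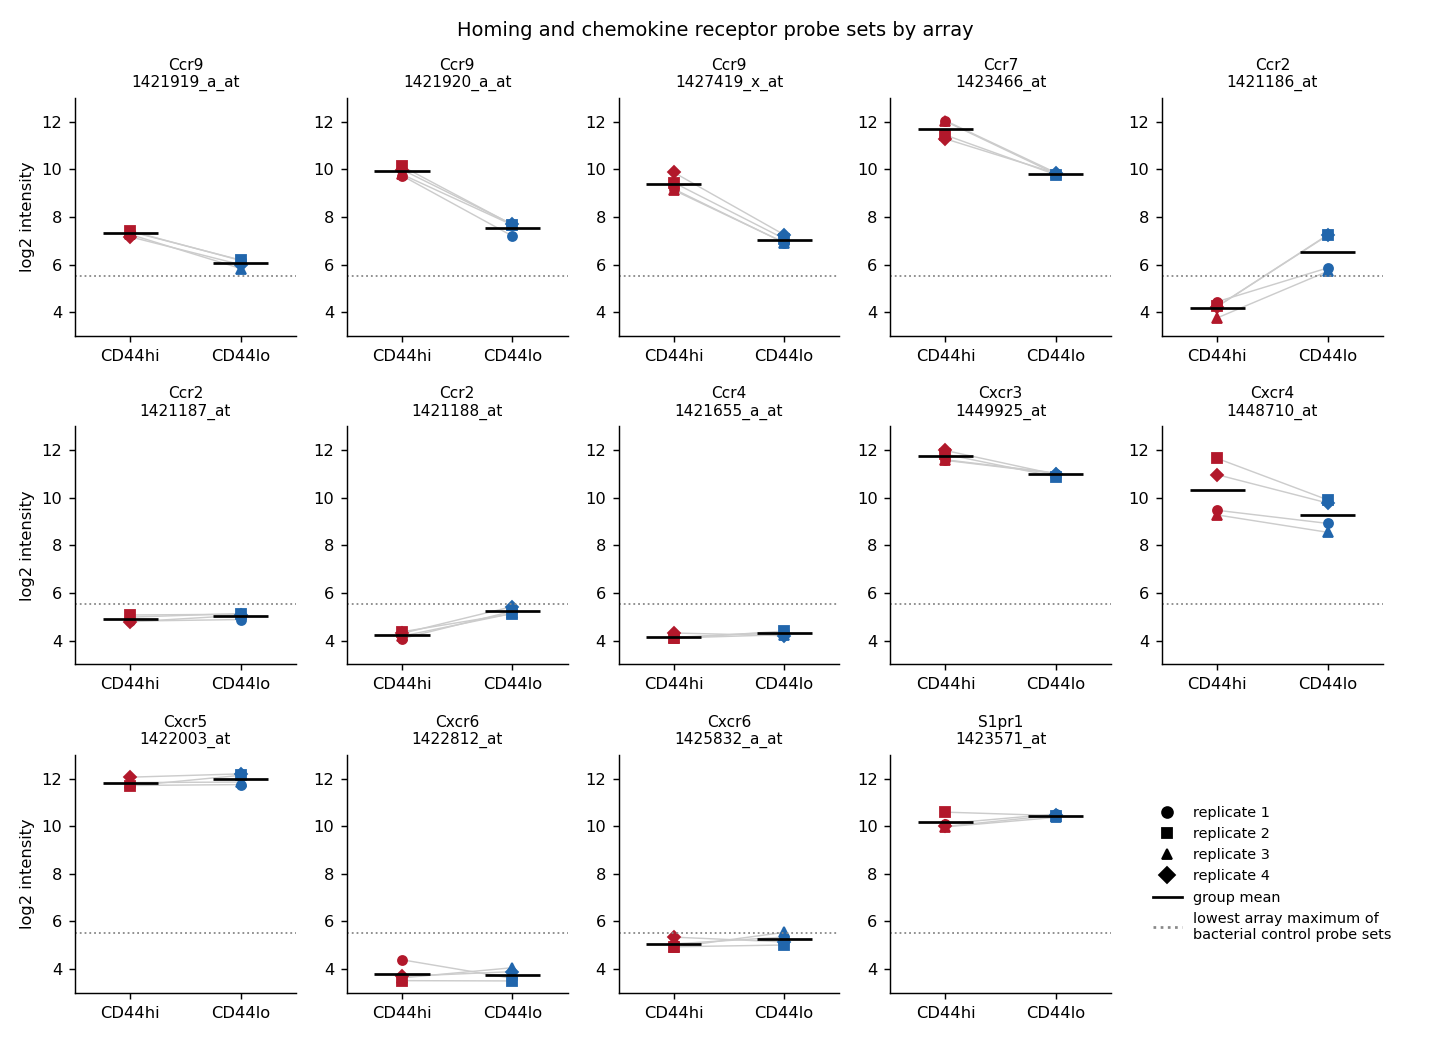
Log2 intensity of each member probe set on every array, CD44hi left and CD44lo right, with grey lines joining arrays of the same replicate number, bars at the group means and a dotted line at the lowest array maximum of the bacterial controls, 5.53. Ccr9, Ccr7 and Cxcr3 sit higher on every CD44hi array than on any CD44lo array, the Ccr2 probe sets lie under that line on every CD44hi array and reach 7.25 in CD44lo, and Cxcr4 spreads by replicate number in both groups.

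The promoters of Ccr9, Ccr2 and Cxcr3, the called members for which RefSeq supplied one, are shown because Ccr9 and Ccr2 lie in 1 receptor cluster and moved in opposite directions, while Cxcr3 moved with Ccr9. RefSeq's table (GRCm38.p6) held a promoter for 6 of the 9 members. Each runs 5′ to 3′ on the gene's strand from 250 bases before to 50 after the transcript start, at chr9:123766961-123767260 (+ strand) for Ccr9, chr9:124101933-124102232 (+ strand) for Ccr2 and chrX:101734098-101734397 (- strand) for Cxcr3. Capitals mark matches, on either strand, to the E-box CANNTG, the T-box core GGTGTG, the RUNX core TGTGGT, the Krüppel-like factor (KLF) core CACCC and the GATA motif AGATAA.
Ccr9: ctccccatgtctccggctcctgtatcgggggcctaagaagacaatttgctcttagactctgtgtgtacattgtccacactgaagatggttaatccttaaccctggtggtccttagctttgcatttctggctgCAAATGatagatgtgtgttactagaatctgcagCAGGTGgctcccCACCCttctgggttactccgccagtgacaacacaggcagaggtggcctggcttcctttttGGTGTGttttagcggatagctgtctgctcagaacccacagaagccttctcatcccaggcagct
Ccr2: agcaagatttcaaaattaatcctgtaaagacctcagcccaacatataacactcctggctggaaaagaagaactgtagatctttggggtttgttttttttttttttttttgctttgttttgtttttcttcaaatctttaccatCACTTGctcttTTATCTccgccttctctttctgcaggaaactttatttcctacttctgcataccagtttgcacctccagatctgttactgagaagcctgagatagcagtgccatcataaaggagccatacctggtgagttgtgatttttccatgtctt
Cxcr3: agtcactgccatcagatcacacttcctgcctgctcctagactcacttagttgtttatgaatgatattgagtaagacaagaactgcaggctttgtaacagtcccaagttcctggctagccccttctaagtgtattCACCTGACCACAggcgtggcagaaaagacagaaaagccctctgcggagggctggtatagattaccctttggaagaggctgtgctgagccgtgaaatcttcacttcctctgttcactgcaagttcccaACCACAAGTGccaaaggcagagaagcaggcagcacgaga

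Counting the first transcribed base as 1, the Ccr9 window held E-boxes starting at -118 and -85, a CACCC at -73 and a GGTGTG at -13. The Ccr2 window held an E-box at -108 and an AGATAA on the opposite strand at -97. The Cxcr3 window held 2 E-boxes, at -116 and 16, and 2 RUNX cores on the opposite strand, at -110 and 12. The core at -110 directly follows the E-box at -116 without sharing bases, while the core at 12 shares bases with the E-box at 16. Of 32851 promoters of 300 bases in the table, 72.3% held the E-box, 57.5% the CACCC, 19.0% the GGTGTG, 16.8% the RUNX core and 11.2% the AGATAA, and a match describes the letters only, not a binding site.

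Among the receptors of lymphoid homing, Ccr9, the receptor for the thymic and intestinal chemokine Ccl25, rose with all its probe sets, with 2 of them by more than Ccr7 and with the other by less. Its probe set 1421920_a_at was at a log2 intensity of 9.73, 10.13, 9.79 and 9.99 on CD44hi arrays 1 to 4 and at 7.20, 7.67, 7.66 and 7.69 on CD44lo arrays 1 to 4. The groups lay 2.04 apart at their nearest arrays, and CD44lo array 1 was the lowest of all. The difference was 2.35 on the log2 scale (SE 0.14, limma adjusted p = 3.18e-05), or 5.11-fold.

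The other Ccr9 probe sets moved the same way. Probe set 1427419_x_at read 9.17, 9.44, 9.13 and 9.87 on CD44hi arrays against 6.92, 7.09, 6.92 and 7.25 on CD44lo arrays, a difference of 2.36 (SE 0.17, limma adjusted p = 8.59e-05). Its suffix marks probes that may also bind other sequences. Probe set 1421919_a_at was dimmer, at 7.39, 7.41, 7.27 and 7.16 on CD44hi arrays against 6.19, 6.17, 5.83 and 5.996 on CD44lo arrays, and differed by 1.26 (SE 0.10, limma adjusted p = 2.19e-04), or 2.40-fold. The size of the Ccr9 rise thus depends on the probe set, between 2.40-fold and 5.13-fold, while every CD44hi array was above every CD44lo array with all of them. Its ligand gene Ccl25 was at 10.01 in CD44hi and 9.95 in CD44lo and did not pass (limma adjusted p = 0.951).

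Ccr7, which brings T cells and mature dendritic cells into lymph nodes along Ccl19 and Ccl21, was at 12.02, 11.44, 12.04 and 11.28 on CD44hi arrays 1 to 4 and at 9.81, 9.77, 9.86 and 9.84 on CD44lo arrays 1 to 4. The CD44lo arrays lay within a narrow band, and CD44hi arrays 1 and 3 were higher than 2 and 4. Ccr7 rose by 1.88 (SE 0.17, limma adjusted p = 4.01e-04), or 3.67-fold. In bulk RNA, more cells that carry a transcript and more transcript per cell cannot be told apart. Dendritic cells also carry Ccr7, and of 11 measured dendritic cell markers 2 rose, Ccr7 itself and the activation marker Cd83 (by 1.59). The summed intensity of that list was 5610 to 8134 on CD44hi arrays and 2255 to 2634 on CD44lo arrays, sums that include Ccr7 and Cd83. In that list 3 of the 11 had an unadjusted p under 0.05 (limma). Only 4 of the 11 lay within the control range on all arrays, so most were above it on at least 1 array. Among those 4 were Itgax, which codes for the dendritic cell integrin CD11c, and Flt3. Itgax was at 4.64 and 4.62 and Flt3 at 4.94 and 5.03 in CD44hi and CD44lo. Of 6 natural killer cell markers 0 were called (limma; 0 had an unadjusted p under 0.05), and of 12 stromal and endothelial markers 2 rose, Pdgfra (by 2.97) and Pecam1 (by 0.99). Postn, of the same list, was at 8.17 in CD44hi and 10.57 in CD44lo (log2 difference -2.40), which did not pass (limma adjusted p = 0.0768) but was called as lower with the replicate block (limma adjusted p = 0.00220). The part of cells other than T cells in the receptor differences was not tested.

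Among the receptors of inflamed tissue, Cxcr3, the receptor for Cxcl9, Cxcl10 and Cxcl11 on T helper 1 and CD8 memory cells, was at 11.57, 11.83, 11.60 and 11.99 on CD44hi arrays 1 to 4 and at 11.02, 10.88, 11.05 and 10.99 on CD44lo arrays 1 to 4. The groups were 0.53 apart at their nearest arrays. Cxcr3 rose by 0.76 (SE 0.11, limma adjusted p = 0.00462), or 1.70-fold. With averaged arrays Cxcr3 was not called, also with the number pair as a block (limma adjusted p = 0.0909). Its ligand gene Cxcl10 rose too, to 13.17, 13.05, 13.14 and 12.83 on CD44hi arrays 1 to 4, against 9.16, 8.63, 9.22 and 8.47 on CD44lo arrays 1 to 4 (log2 difference 4.18, SE 0.18, limma adjusted p = 4.86e-06). Cxcr3 and Cxcl10 transcripts were thus both higher in the CD44hi arrays, and neither group overlapped the other for either gene. The other ligand genes lay within the control range on all arrays and did not pass. Cxcl9 was at 3.95 in CD44hi and 3.94 in CD44lo (limma adjusted p = 0.980), and Cxcl11 at 4.75 and 4.46 (limma adjusted p = 0.546).

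Ccr2, the receptor for Ccl2 on monocytes and effector or memory T cells, was lower in CD44hi with 2 of its 3 probe sets. Probe set 1421186_at was at 4.44, 4.24, 3.76 and 4.24 on CD44hi arrays 1 to 4 and at 5.86, 7.22, 5.71 and 7.25 on CD44lo arrays 1 to 4. All CD44hi arrays and CD44lo array 3 lay within the control range, and CD44lo arrays 2 and 4 stood clearly above it. This probe set fell by 2.34 on the log2 scale (SE 0.37, limma adjusted p = 0.00954), a size that is uncertain because the CD44hi level cannot be told from background.

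Probe set 1421188_at lay within the control range on all 8 arrays, with 4.08, 4.37, 4.19 and 4.30 on CD44hi arrays against 5.24, 5.13, 5.14 and 5.43 on CD44lo arrays. It fell by 1.00 (SE 0.10, limma adjusted p = 6.36e-04), with a difference of -0.62 with 16 added to each intensity. The third, 1421187_at, read 4.82, 5.08, 4.99 and 4.79 on CD44hi arrays against 4.89, 5.11, 5.14 and 5.07 on CD44lo arrays, with overlapping groups (log2 difference -0.13, limma adjusted p = 0.730). Monocytes carry Ccr2 as well. Of 13 markers of monocytes, macrophages and neutrophils 0 were called (limma; 1 had an unadjusted p under 0.05), 9 lay within the control range on all arrays, among them Lyz2, Cd14 and Adgre1, and the summed intensity of the list was 597.6 to 1619 on CD44hi arrays and 644.7 to 1216 on CD44lo arrays.

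Ccr4 and Cxcr6 gave no level that can be told from the controls. The Ccr4 probe set, for a receptor of skin-homing and T helper 2 cells, ranged over 4.09 to 4.32 in CD44hi and 4.21 to 4.40 in CD44lo. The Cxcr6 probe sets, for the receptor of Cxcl16 on tissue-resident and liver T cells, ranged over 3.52 to 4.39 and 4.92 to 5.34 on CD44hi arrays, against 3.50 to 4.06 and 5.01 to 5.54 on CD44lo arrays. None of these 3 probe sets passed (limma adjusted p = 0.633 for Ccr4, and 0.979 and 0.716 for Cxcr6), and their low levels cannot show whether the groups differ.

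**Figure D2:**
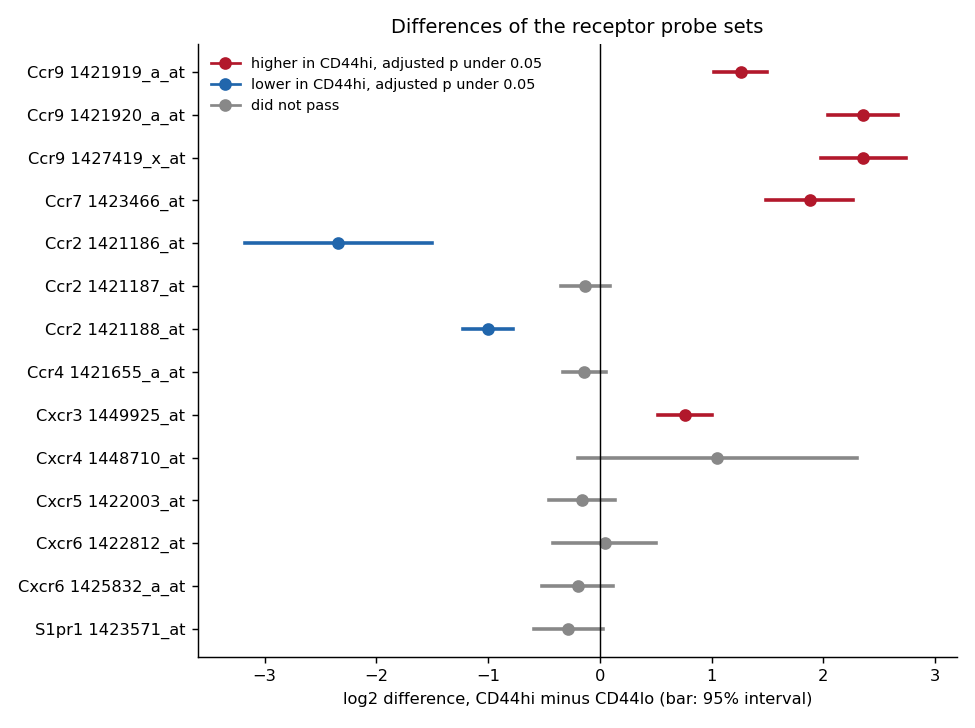
Log2 difference (CD44hi minus CD44lo, x axis) of each member probe set (rows), with the 95% interval of the limma fit, in red where higher, blue where lower and grey where not called. All Ccr9 probe sets lie right of 0, the Ccr2 probe sets spread from -2.34 to -0.13, and the Cxcr4 interval is the widest of the uncalled ones, from -0.20 to 2.30.

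Among the receptors of retention, egress and positioning, Cxcr4 varied most within groups. Cxcr4 binds Cxcl12 and holds lymphocytes and progenitors in bone marrow and thymus. It was at 9.48, 11.65, 9.28 and 10.97 on CD44hi arrays 1 to 4 and at 8.93, 9.92, 8.55 and 9.78 on CD44lo arrays 1 to 4. Arrays 2 and 4 exceeded arrays 1 and 3 by 1.93 on average in CD44hi and by 1.11 in CD44lo, so the groups overlapped. The difference between groups was 1.05 (SE 0.55, 95% interval -0.20 to 2.30) and did not pass (limma adjusted p = 0.546). Within each replicate number CD44hi was higher, by 0.55, 1.74, 0.73 and 1.19 for numbers 1 to 4, and once replicate number was a block Cxcr4 was called as higher (SE 0.19, limma adjusted p = 0.0311). It was not called with averaged arrays and the number pair as a block (limma adjusted p = 0.121). Between arrays numbered 1 and 3 alone the difference was 0.64 (limma adjusted p = 0.0977), and between those numbered 2 and 4 alone 1.46 (limma adjusted p = 0.0369). The 3' over 5' Actb log2 signal was likewise higher on arrays 2 and 4 (0.795 and 0.710 in CD44hi, 0.610 and 0.558 in CD44lo) than on arrays 1 and 3 (0.468 and 0.532 in CD44hi, 0.380 and 0.442 in CD44lo). The Gapdh signal did not split this way. It was 0.790, 0.877, 0.838 and 0.760 on CD44hi arrays 1 to 4 and 0.683, 0.719, 0.730 and 0.650 on CD44lo arrays 1 to 4. The part of RNA quality in the Cxcr4 spread was not tested.

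S1pr1, the egress receptor, was at 10.11, 10.59, 9.98 and 9.99 on CD44hi arrays 1 to 4 and at 10.52, 10.45, 10.37 and 10.47 on CD44lo arrays 1 to 4. CD44hi array 2 lay above every CD44lo array and the other CD44hi arrays lay below all of them. The difference was -0.28 (95% interval -0.59 to 0.03, limma adjusted p = 0.492). Without CD44hi replicate 2 it was -0.42 and S1pr1 was called as lower (limma adjusted p = 0.0336), so 1 array decides that call.

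Cxcr5, which follows Cxcl13 into B cell follicles and marks B cells and follicular helper T cells, was at 11.71, 11.70, 11.84 and 12.06 on CD44hi arrays 1 to 4 and at 11.75, 12.14, 11.86 and 12.20 on CD44lo arrays 1 to 4. The groups overlapped, and the difference was -0.16 (95% interval -0.45 to 0.13, limma adjusted p = 0.772). Among 10 measured B cell markers, Ebf1 alone was called, Cd79a was at 5.32 in CD44hi and 5.49 in CD44lo, within the control range on 7 of 8 arrays, and Cd79b at 4.96 and 4.75, within it on all. Ms4a1, which codes for CD20, was at 4.99 in CD44hi and 3.68 in CD44lo with groups that did not overlap (log2 difference 1.31), within the control range on all arrays but CD44hi array 4, and did not pass (limma adjusted p = 0.110, or 0.0758 with the replicate block). The summed intensity of that list was 3198 to 5895 on CD44hi arrays and 334.7 to 390.1 on CD44lo arrays, sums that include Ebf1 itself at 11.89 and 5.30.

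**Figure D3:**
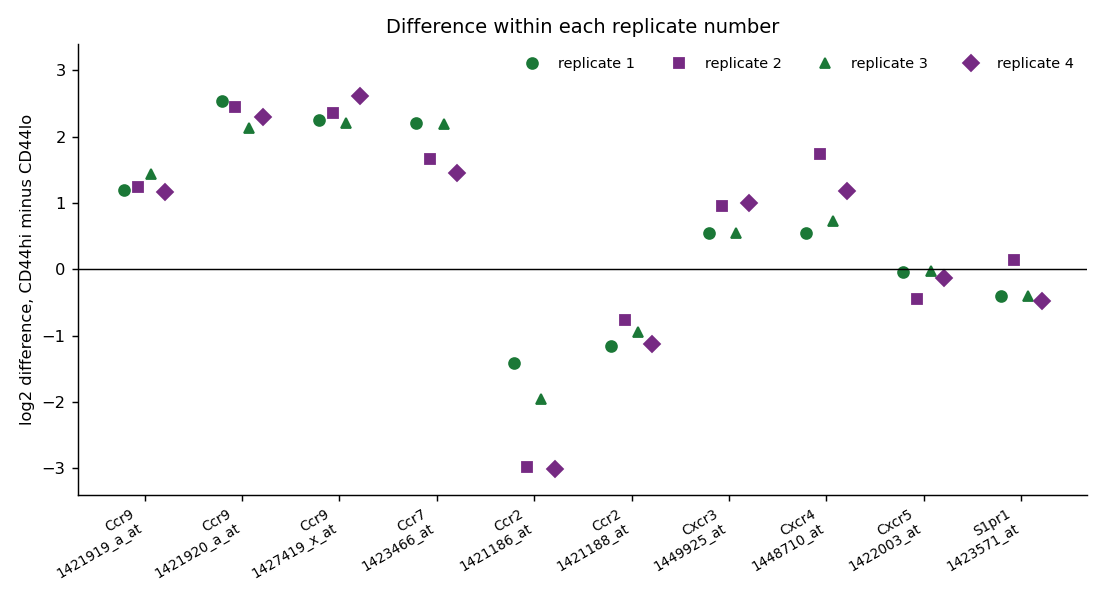
Log2 difference (CD44hi minus CD44lo, y axis) within each replicate number for the called member probe sets and for Cxcr4, Cxcr5 and S1pr1 (x axis), numbers 1 and 3 in green and 2 and 4 in purple. Ccr9 differs by a like amount at each number, Ccr7 by more at numbers 1 and 3, and Cxcr3, Cxcr4 and the Ccr2 probe set 1421186_at by more at numbers 2 and 4.

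Several members differed by unequal amounts at the array numbers, though no such inequality passed its test. The Ccr7 difference was 2.20 over arrays 1 and 3 and 1.56 over arrays 2 and 4, the Cxcr3 difference 0.55 and 0.98, and that of Ccr2 probe set 1421186_at -1.69 and -3.00. None of the 14 probe sets passed a limma test of that change (interaction of group with number pair; 5 had an unadjusted p under 0.05), with adjusted p = 0.0792 for Ccr7, 0.100 for Ccr2, 0.208 for Cxcr3 and 0.336 for Cxcr4. Over all probe sets 0.857% passed it. For the main Ccr9 probe set, 1421920_a_at, the differences were 2.33 and 2.38.

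Ccr9, Cxcr6 and Ccr2 lie close together on mouse chromosome 9, in a cluster of chemokine receptor genes. Ccr4 and Cxcr5 are elsewhere on that chromosome, Ccr7 is on chromosome 11, Cxcr3 on X, Cxcr4 on 1 and S1pr1 on 3. Between 10 genes before Ccr9 and 10 after Ccr2 in RefSeq's gene order (GRCm38.p6), 14 of 31 genes were measured, with 22 probe sets. Called were 6 of the 22, against 3.12% of all probe sets. From Ccr9 and Ccr2, members chosen with results of these data known, came 5 of the 6, so the count describes the window only. The sixth was from Lztfl1, a regulator of ciliary protein trafficking and the nearest measured gene before Ccr9. Its probe set 1417170_at was at 12.00, 11.70, 12.01 and 11.68 on CD44hi arrays 1 to 4 and at 11.29, 11.25, 11.34 and 11.22 on CD44lo arrays 1 to 4, a rise of 0.57 (SE 0.10, limma adjusted p = 0.0150). The call was lost without CD44lo replicate 2 (adjusted p = 0.0540) or 4 (adjusted p = 0.0597) in limma. Its other probe set, 1460200_s_at, differed by 0.69 without passing (limma adjusted p = 0.183), and was called as higher with the replicate block (limma adjusted p = 0.0200). Fyco1, next after Ccr9 and overlapping Cxcr6, differed by 0.03. Xcr1, Ccr1, Ccr1l1 and Ccr3, the receptor genes between Cxcr6 and Ccr2, lay within the control range on all arrays in both groups.

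**Figure D4:**
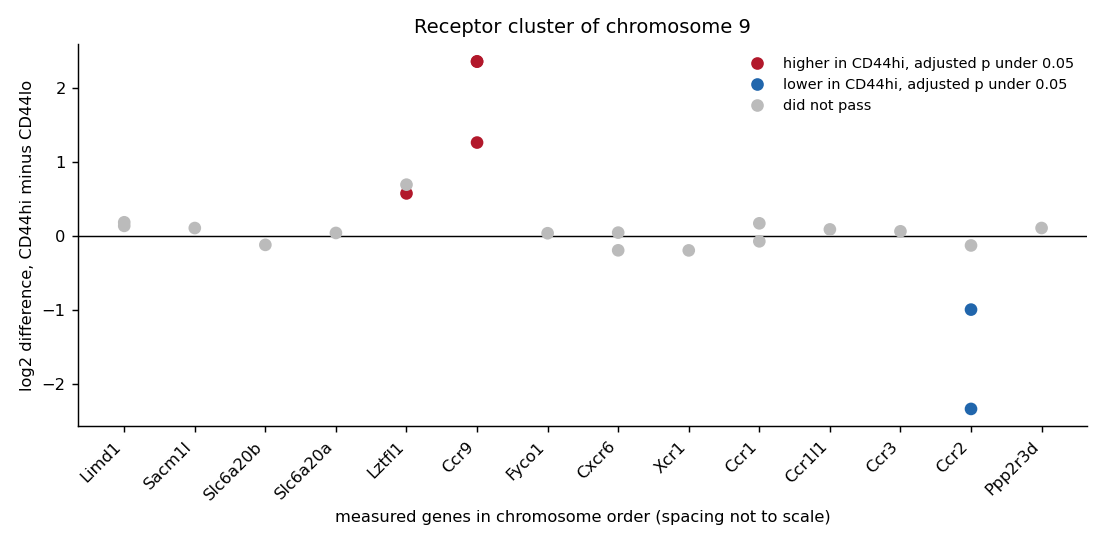
Log2 difference (CD44hi minus CD44lo, y axis) of every probe set of the measured genes around the chromosome 9 receptor cluster, in gene order along the x axis and not to scale, red where higher, blue where lower and grey where not called. Ccr9 and its neighbour Lztfl1 lie above 0 and Ccr2 below, though Ccr2 probe set 1421187_at, at -0.13, is near 0. The genes between Ccr9 and Ccr2 are near 0 too, and all but Fyco1 lay within the control range on all arrays.

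Beyond the members, 15 other chemokine receptors were measured with 1 probe set a gene, and 0 were called (limma; 1 had an unadjusted p under 0.05), against 3.51% of all 12393 genes. Their differences ran from -0.24 for Cmklr1, a chemokine-like receptor counted with them, to 0.17 for Ccr10. Of the 15, 10 lay within the control range on all arrays. Of 9 other receptors for egress and positioning lipids 0 were called (limma; 1 had an unadjusted p under 0.05). S1pr5, an egress receptor of NK and effector T cells, differed by -0.20 and Ptgdr2, a prostaglandin receptor of T helper 2 cells, by 0.26, each without passing and within the control range. Of 10 enzymes and transporters of sphingosine 1-phosphate 0 were called (limma; 1 had an unadjusted p under 0.05), or Plpp1, a lipid phosphatase, alone with the replicate block as higher. Sphk1, which makes the lipid, differed by -0.11 without passing.

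Of 12 measured ligand genes of the members, Cxcl10 was the 1 called. Of 31 genes of receptor signalling and migration 1 rose and 2 fell, with a median difference of -0.0643. Grk5, a kinase that desensitises G protein-coupled receptors, rose by 0.96 (SE 0.15, limma adjusted p = 0.00915). Tiam1, a Rac activator of T cell polarisation, fell by 0.53 (SE 0.08, limma adjusted p = 0.00614), and its dim second probe set differed by -0.08. The call was lost between arrays numbered 2 and 4 alone (difference -0.45, limma adjusted p = 0.146) and with averaged arrays, also with the number pair as a block (limma adjusted p = 0.117). Rgs14, a brake on inhibitory G proteins, fell by 0.38 (limma adjusted p = 0.0458), a call lost with the replicate block and whenever 1 array was left out.

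Of 23 transcription factors that regulate homing receptors 1 rose and 1 fell, with a median difference of 0.142, against -5.86e-05 over all genes. Gata3, a factor of T helper 2 cells, had the larger change. It was at 6.13, 6.26, 6.26 and 6.19 on CD44hi arrays 1 to 4 and at 9.76, 9.71, 9.43 and 10.21 on CD44lo arrays 1 to 4, and fell by 3.57 (SE 0.15, limma adjusted p = 4.44e-06). Id2, an inhibitor of E proteins, rose by 0.54 (limma adjusted p = 0.0269), while its other probe sets differed by 0.29 and 0.00048 without passing, and the call was lost without CD44hi replicate 1, 2 or 4 or CD44lo replicate 2, 3 or 4. Of 20 homing selectins, integrins and selectin ligand enzymes Cd44 was the 1 called, and it is the sorted marker.

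**Figure D5:**
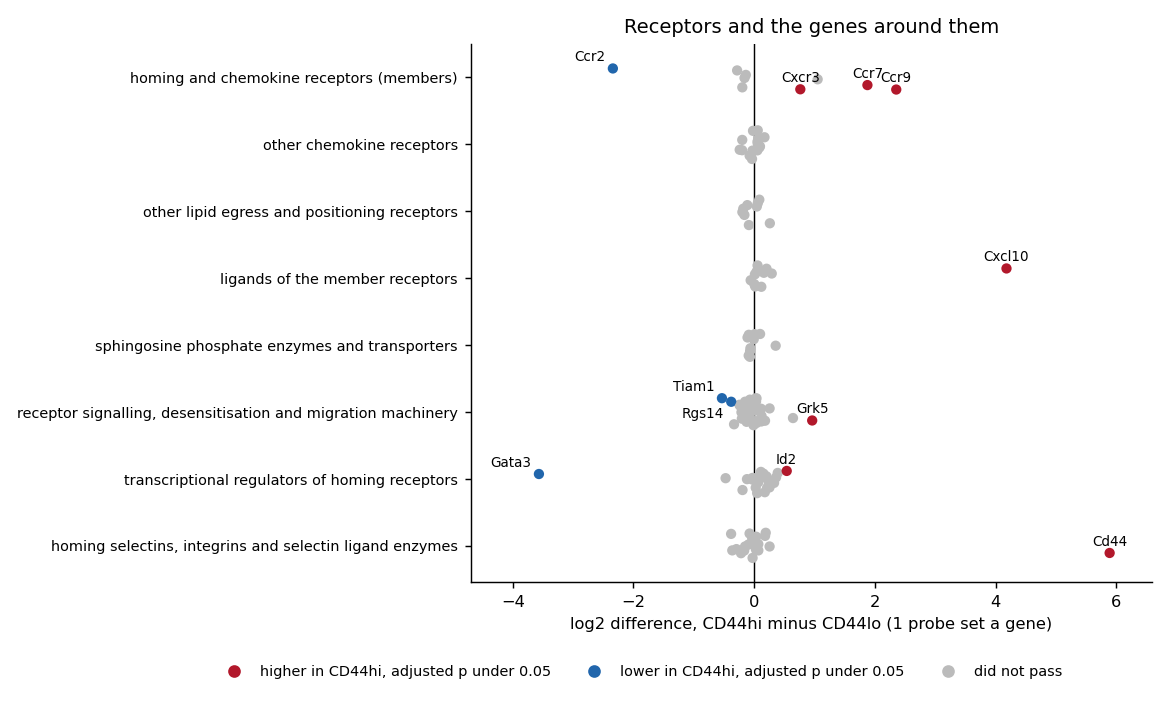
Log2 difference (CD44hi minus CD44lo, x axis) of the 9 members and of the genes of each related list (rows), 1 probe set a gene, with points shifted vertically for clarity, red where higher, blue where lower and grey where not called. Of the 9 members Ccr9, Ccr7 and Cxcr3 are red and Ccr2 is blue. The 15 other chemokine or chemokine-like receptors all lie between -0.24 and 0.17, and 10 of them were within the control range on all arrays.

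The genes whose profile over the 8 arrays lay nearest to each called member were found by the root mean square distance between mean-centred log2 values, taking for each member its most strongly called probe set. For Ccr9 these were Nrp2, a semaphorin and growth factor coreceptor (0.192), the receptor phosphatase gene Ptprg (0.199) and Il7r, the interleukin-7 receptor (0.21). For Ccr7 they were the chemokine gene Ccl5 (0.153), Hmgn3 (0.204) and Tceal8 (0.216). For Cxcr3 they were Trip10 (0.0804), Dcun1d1 (0.0816) and Drc3 (0.087), and for Ccr2 probe set 1421188_at Creb3l1 (0.108), Ppm1m (0.111) and Gsn (0.126). That Ccr2 probe set lay within the control range on all arrays, so its neighbours are those of a signal that cannot be told from background. A distance is smaller for a gene whose difference is smaller, so these distances are not compared between members.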

How the data were processed

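RNA of 8 samples, 4 CD44hi and 4 CD44lo, was hybridised to 1-colour Affymetrix Mouse 430A 2.0 arrays, and group and replicate number were taken from each title. Per the labels' protocols, the authors preprocessed the scans with RMA (Robust Multichip Average), a method that usually combines background correction, quantile normalization and probe summary, into 1 intensity a probe set. Its version is not given in the sources used here. The values were linear, so log2 was taken with no pseudocount. RMA tends to shrink differences near background. The number of arrays limits the precision.

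Of 22690 probe sets 64 controls were left out, and 20380 of the rest carry 1 gene symbol, 691 several and 1555 none in the platform annotation. Every probe set was fitted with limma 3.58.1 (lmFit, eBayes; R 4.3.3) on group alone, and p-values were Benjamini-Hochberg adjusted over all of them. For gene lists, the brightest probe set on average stood for its gene. Of the 141 pathway genes listed 120 were measured, and the others are not analysed here. The members, lists and alternatives were chosen with earlier results of these data known. Named are every member probe set, the called genes of each list or otherwise its 2 of smallest p, the 3 nearest profiles and the measured genes of the chromosome 9 cluster, with marker genes and other ligands given as context. The fit was also run on simulated data with arrays drawn independently. Those lack the likeness between array numbers seen here, so that run does not cover it.

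Same-numbered arrays deviated together from their group means (correlations across probe sets 0.572, 0.392, 0.54 and 0.541 for numbers 1 to 4), each above the 0.1 set as the limit. The numbers were treated as pairs in the replicate block, an alternative, while the main fit left them out. The pairing comes from the values, not the labels, and CD44hi array 2 correlated nearly as well with CD44lo array 4 (0.371), and CD44hi array 1 with CD44lo array 3 (0.521). CD44lo array 2 correlated better with CD44hi array 4 (0.436) than with CD44hi array 2 (0.392), so the same number was not always the best match. Alternatives were other scalings, filters, variance models, thresholds, the block and arrays left out or averaged.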

Additional observations from a re-analysis of the deposited data

Results flagged for a closer look

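Among 82 groups of 4 array values, 5 held a value far from the rest, near the 1 in 20 that chance gives. For the Ccr9 probe set 1421920_a_at, CD44lo replicate 1 read 7.197, with its group's other arrays between 7.661 and 7.689. For Cmklr1, CD44lo replicate 3 read 5.045, with its group's other arrays between 4.853 and 4.873. For Xcr1, CD44hi replicate 3 read 4.475, with its group's other arrays between 3.983 and 4.03. For Ccr3, CD44lo replicate 3 read 3.735, with its group's other arrays between 3.978 and 4.022. For Ppp2r3d, CD44lo replicate 4 read 8.158, with its group's other arrays between 8.029 and 8.046. The Ccr9 call held without CD44lo replicate 1 (limma adjusted p = 6.30e-05).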

How the results depend on the processing

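Of 309 values of the 14 member probe sets under the alternatives, 296 kept their side of the threshold, 5 of these being uncalled Cxcr6 values whose sign changed, 10 lost the call, 3 gained it and 0 called ones reversed. Of 604 values of 27 other named probe sets, 44 lost the call, 5 gained it and 0 called ones reversed. Member probe sets called, 5 higher and 2 lower, numbered 3 and 0 among probe sets with a mean above the median (6 members tested), 3 and 1 with 1 probe set a gene (9 tested), 4 and 1 where differences under 1 on the log2 scale were dropped, 0 and 0 with averaged arrays, and 4 and 2 with averaged arrays and the number pair as a block. Without any single array they numbered 5 to 5 and 2 to 3. All probe sets called, 371 higher and 334 lower, numbered 571 and 594 with the replicate block, 620 and 656 with array weights, 561 and 561 for arrays numbered 1 and 3, 191 and 194 above the median mean (11313 tested), 201 and 160 at adjusted p under 0.01, 165 and 111 where differences under 1 were dropped, 252 and 220 genes with 1 probe set a gene, 14 and 2 with averaged arrays, and 209 and 174 with averaged arrays and the number pair as a block. Without any single array they numbered 256 to 347 and 200 to 338, with 214, 211 and 200 lower without CD44lo replicate 2, 3 or 4. Filters and averaging leave fewer probe sets or arrays; for the block and the weights the cause was not tested. The replicate block changed no member call other than that of Cxcr4. With averaged arrays and the number pair as a block, Cxcr3 was not called (limma adjusted p = 0.0909). Levels near the bacterial controls limit Ccr2, Ccr4 and Cxcr6.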
